A study of Mus musculus with 6 samples.

Results

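The genes described here are the glucocorticoid receptor, Nr3c1, and 9 genes known as its direct targets, Fkbp5, Tsc22d3, Sgk1, Zbtb16, Klf9, Klf15, Hsd11b1, Errfi1 and Lpin1. They were taken by gene symbol from the liver RNA-seq table and make up 10 of its 28880 genes. All 10 were present once and passed the filter on low counts, which kept 16717 genes. The libraries came from the livers of male wild-type C57BL/6J mice, 6 to 8 weeks old, with 3 acute ethanol-exposed mice and 3 Control mice and a library for each mouse. Before dosing, the ethanol mice went 12 h without food, and each of them was gavaged once with ethanol (50%, 6 g/kg), and their livers were taken 24 h later. The Control mice were kept without ethanol, and no source used here says whether they were fasted or gavaged or at what hour the livers were taken. Ethanol, fasting and gavage therefore cannot be told apart in these data.

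Glucocorticoids are steroid hormones of the adrenal cortex, and corticosterone is the main one in mice. Their receptor waits in the cytoplasm in a complex of heat shock proteins, moves to the nucleus when it binds hormone, and there binds DNA and raises or lowers the transcription of its targets. In liver the hormone is best known for inducing enzymes of amino acid breakdown and glucose production during fasting and stress, and several of these targets also respond to glucagon, insulin and the circadian clock.

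Total counts ran from 71123046 to 74001784 in the ethanol libraries and from 60514417 to 74210869 in the control libraries. The top 1000 genes by count took up 80.7 to 82.9% of all counts in the ethanol livers and 73.7 to 74.5% in the control livers, and the TMM scaling factors were 0.768 to 0.836 against 1.26 to 1.27. TMM rescales libraries so that most genes do not differ, and with it the middle log2 fold change over the tested genes was -0.04. With library size alone that median was -0.71, so each change below is relative to the bulk of genes. The 13 hepatocyte markers found in the table summed to 151318 to 155597 CPM, counts scaled to a common library size, with ethanol and 84012 to 97080 in controls, as the tissue label implies for liver, and 2 of the 13 passed the test as higher. On library-size CPM the same sums overlapped, at 116104 to 127288 and 105783 to 122782, and 0 of the 13 were called there; 10 had an unadjusted p under 0.05 in the TMM fit, and DESeq2 called 2. Fewer cells of a type and less RNA per cell cannot be told apart in whole liver. Of 5 erythroid markers tested, 4 (summed level of the list 579 to 864 against 180 to 220 CPM) were higher with ethanol, as were 4 of 5 neutrophil markers tested of 8 listed (summed level 3.06 to 14.9 against 1.21 to 1.72 CPM), of which 2 were called with limma on log2(FPKM + 1) and 0 without its filter. S100a8 (0, 0 and 4 control counts), Cxcr2 (0, 0 and 10) and Retnlg (8, 0 and 4) passed the low-count filter through the ethanol libraries alone. The neutrophil count of 4 of 5 is therefore partly set by the filter. T and NK cell markers summed to 0.556 to 1.14 against 2.59 to 3.29 CPM (1 of 5 tested lower) and B cell markers to 4.07 to 6.14 against 7.12 to 8.03 CPM (2 of 7 lower). Every marker exceeded 3 counts in at least 1 library. Of 10 endothelial markers, 2 were called higher and 3 lower, and their sum was 145 to 232 against 165 to 180 CPM, and with library size alone 113 to 178 against 208 to 228 CPM. Of 10 stellate cell markers 2 were called lower, the collagens Col1a1 (log2 fold change -1.90) and Col3a1 (-2.44), while the list's sum was 224 to 262 against 196 to 224 CPM, and with library size alone 172 to 219 against 247 to 281 CPM. The cholangiocyte marker Sox9 (2.78, 1 of 6 tested) and the macrophage marker Cd68 (1.12, 1 of 12) were called higher. The call of Cd68 was lost on omission of any library other than ethanol replicate 3. With library size alone 0 macrophage markers were called higher and 5 lower, where 5.06% and 32.2% of all genes were. In the TMM fit 10.4% of all genes tested were called higher and 13.8% lower, the background for the marker calls given here. At an unadjusted p under 0.05 in that edgeR fit the shares were 25.6% and 26.7%. The cholangiocyte sums were 58.5 to 76.3 against 32.6 to 74.6 CPM and the Kupffer cell and macrophage sums 150 to 201 against 180 to 205 CPM; with library size alone the latter were 125 to 156 against 228 to 257 CPM, without overlap. The part of these cell types in the results below was not tested.

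To see how the receptor's targets stood 24 h after ethanol, each gene was compared between the groups, and a gene was called where the adjusted p was below 0.05 and the log2 fold change exceeded 1 in size (edgeR quasi-likelihood test, two-sided, Benjamini-Hochberg over 16717 genes). Of the 10 genes, 5 were upregulated (Fkbp5, Zbtb16, Klf9, Errfi1 and Lpin1), 1 was downregulated (Tsc22d3), and Nr3c1, Sgk1, Klf15 and Hsd11b1 did not pass. Across all genes tested, 10.4% were called higher and 13.8% lower, and 24.2% were called in either direction. By adjusted p alone, 7 of the 10 were higher and 1 was lower, where the background was 21.5% in each direction. The 3 ethanol values lay entirely above the 3 control values in 7 of the 10 genes and entirely below in 1, against 28.0% and 31.0% of all genes and 59.0% in either direction. The median log2 fold change of the 10 genes was 1.20, and the median of their absolute values was 1.31, compared with 0.68 over all genes tested.

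**Figure D1:**
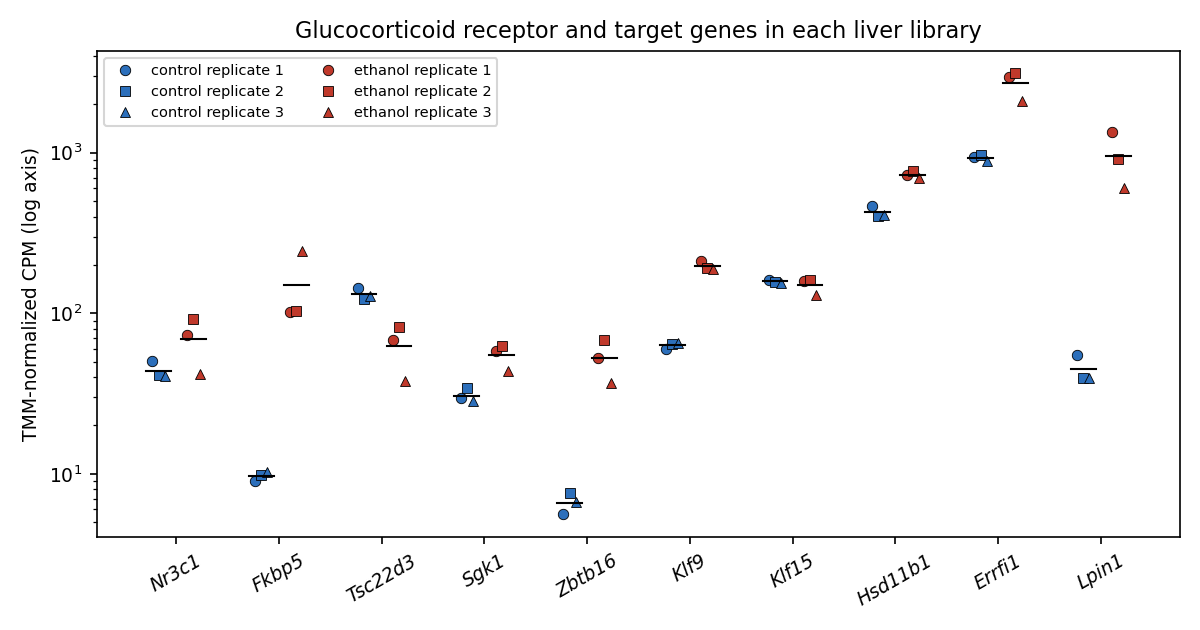
TMM-scaled CPM of the receptor and its 9 targets on a log axis, with a point for each mouse and a bar at each group mean. Lpin1, Fkbp5 and Zbtb16 stand far above their control values in all 3 ethanol livers, Tsc22d3 lies below its control values, and the 2 groups overlap for Klf15 and Nr3c1.

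The receptor itself did not pass the test. Nr3c1 (ENSMUSG00000024431) was at 73.3, 92.5 and 42.0 CPM in the ethanol livers and at 50.1, 41.0 and 40.8 CPM in the control livers. Ethanol replicates 1 and 2 lay above every control, and replicate 3 lay among them. The means were 69.3 ± 25.5 and 44.0 ± 5.31 CPM (SD, n = 3 each), and the log2 fold change was 0.66 with a 95% interval of 0.02 to 1.29 before adjustment (SE 0.27, adjusted p = 0.0869 by edgeR). Without ethanol replicate 3 it was 0.93 (adjusted p = 0.00073), still short of the fold threshold. The size of this value rests on the scaling: with library size alone it was 0.0023 (adjusted p = 0.995), and in FPKM, which scales fragments by transcript length and total, the 2 group means were both 6.74, with SDs of 2.74 and 0.835.

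Hsd11b1, which sets ligand supply within the cell, was higher but short of the fold threshold. It encodes the enzyme that regenerates active corticosterone from its inert keto form inside hepatocytes. It was at 721, 773 and 697 CPM with ethanol and at 468, 401 and 409 CPM in controls, without overlap. The fold was 1.71 (log2 0.78, SE 0.11, adjusted p = 0.00201 by edgeR). With library size alone its log2 fold change was 0.11 (adjusted p = 0.492), and the FPKM means were 127 ± 12.9 and 118 ± 10.5. H6pd, which feeds this enzyme with NADPH in the endoplasmic reticulum, was at 394, 314 and 639 CPM against 382, 350 and 348 CPM, and the groups overlapped (log2 fold change 0.32, adjusted p = 0.335; -0.36 with library size alone). Hsd11b2, the opposing enzyme, had 0, 0 and 0 counts against 7, 4 and 0 and was not tested.

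Among the 10 genes listed for corticosteroid supply and clearance, 9 were tested, 1 was called higher and 1 lower. Of all genes tested, 10.4% were called higher and 13.8% lower, so these counts lie near the background. Serpina6, the corticosteroid-binding globulin that carries the hormone in plasma, rose from 86.8, 67.0 and 80.6 CPM in controls to 291, 349 and 234 CPM with ethanol (log2 fold change 1.90, SE 0.18, adjusted p = 0.000385). Srd5a1, a 5-alpha-reductase that inactivates corticosterone, was at 34.1, 33.0 and 16.1 CPM against 100.5, 98.5 and 89.7 CPM (log2 fold change -1.80, SE 0.27, adjusted p = 0.00238). Both groups of 3 were fully separated for these 2 genes.

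Fkbp5, which encodes a co-chaperone that lowers the receptor's affinity for hormone and so closes a feedback loop, was strongly upregulated. Its values were 101, 103 and 246 CPM in the ethanol livers and 9.05, 9.79 and 10.3 CPM in the control livers. The control mice differed little among themselves, and even the lowest ethanol value lay far above the highest control. The change was 15.5-fold (log2 3.95, SE 0.38, 95% interval 3.05 to 4.85, adjusted p = 0.000423 by edgeR), and the gene ranked 413 of all genes tested by the size of its change. Ethanol replicate 3 was the highest library for Fkbp5, and without it the log2 fold change was 3.41; with library size alone it was 3.27. Fkbp5 (ENSMUSG00000024222, chromosome 17, 28618068 to 28736498, minus strand, coordinates as deposited) overlaps 4 other annotated genes, none of which held more than 7.18% of its count in a library. Of the other called genes, Zbtb16 lies on chromosome 9 (48565597 to 48747522, minus), Klf9 on 19 (23118590 to 23145498, plus), Errfi1 on 4 (150938376 to 150953349, plus), Lpin1 on 12 (16585670 to 16660967, minus) and Tsc22d3 on X (139440277 to 139501408, minus), each as the whole gene in the deposited table.

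Of 16 receptor chaperones tested, which hold the receptor ready for hormone, 0 were called higher and 4 were called lower by edgeR, where 10.4% and 13.8% of all genes were. Their median log2 fold change was -0.27. By adjusted p alone 1 was higher and 5 were lower (21.5% of all genes in each direction). At an unadjusted p under 0.05 the counts were 1 and 8 (25.6% and 26.7% of all genes). DESeq2 called 0 higher and 5 lower (7.23% and 10.4% of all genes). Hspa1b, an inducible HSP70, was at 8.39, 7.08 and 4.40 CPM against 22.2, 29.2 and 26.4 CPM (log2 fold change -1.97, SE 0.25, adjusted p = 0.00113). Hspa1b shares nearly all its coding sequence with Hspa1a, so the split of reads between the 2 copies is uncertain. Hspa1a had a log2 fold change of -0.22 (edgeR adjusted p = 0.600), and its groups overlapped. Dnajb1, an HSP40 partner of HSP70, was at 6.36, 7.08 and 9.95 CPM against 19.0, 18.3 and 18.7 CPM (log2 fold change -1.26, SE 0.18, adjusted p = 0.00197). Hspa8, the constitutive HSC70, had a log2 fold change of -1.03 (edgeR adjusted p = 0.0112), which fell short of the fold threshold without ethanol replicate 1 (-0.88), ethanol replicate 2 (-0.91) or control replicate 2 (-0.99). Stip1, the HOP adaptor that links HSP70 to HSP90, had a log2 fold change of -1.02 (edgeR adjusted p = 0.0404), and its call was lost without any library other than ethanol replicate 2 (-0.72 without ethanol replicate 3, adjusted p = 0.124 without ethanol replicate 1). The HSP90 genes did not pass, with log2 fold changes of 0.15 for Hsp90aa1 and -0.20 for Hsp90ab1. Fkbp4, the co-chaperone that competes with the Fkbp5 protein for HSP90 and favours hormone binding, was at 81.0, 124 and 37.2 CPM against 159, 165 and 158 CPM. Its groups did not overlap, but the spread among the ethanol mice was wide and the log2 fold change of -0.99 did not pass (SE 0.38, adjusted p = 0.0697). Fkbp4 was called lower in 7 of 16 alternatives, among them library size alone (-1.64), DESeq2 and the replicate block. With library size alone 7 chaperones were called lower, as were 32.2% of all genes, and 2 were after the trend with transcript length was taken out of each library.

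**Figure D2:**
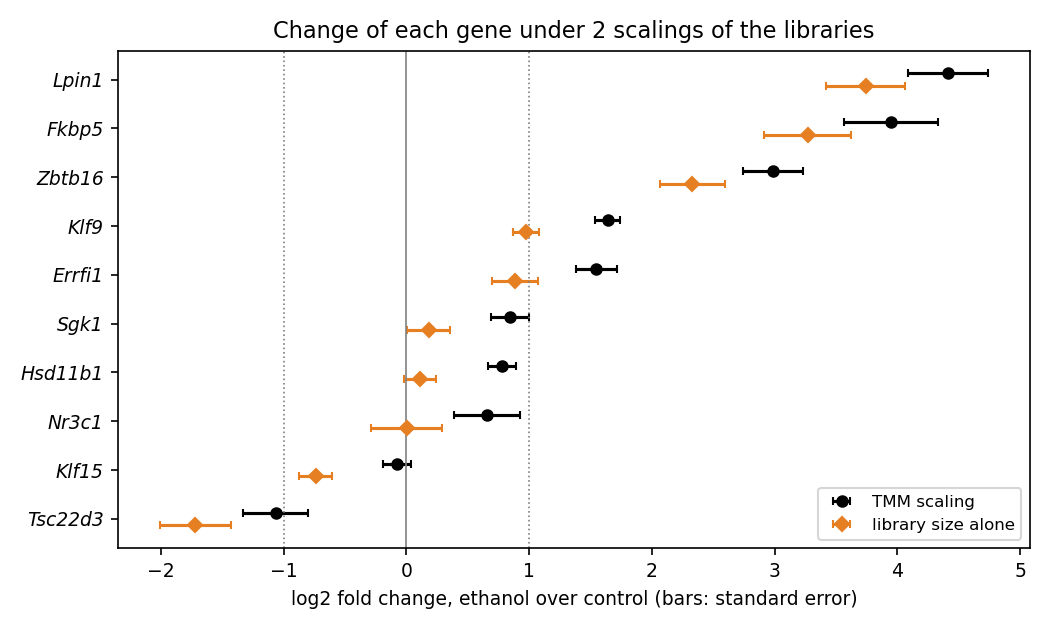
Log2 fold changes of the receptor and its 9 targets, ethanol over control, with TMM scaling in black and with library size alone in orange; bars are standard errors from edgeR and dotted lines mark the fold threshold. Lpin1, Fkbp5 and Zbtb16 stay beyond 2 on both scales, whereas Nr3c1, Sgk1 and Hsd11b1 lie near 0 and Klf15 lies below it with library size alone.

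Of the 3 zinc finger transcription factors, 2 rose and Klf15 did not pass the test. Zbtb16, which encodes PLZF, a BTB domain repressor, was at 52.5, 67.8 and 36.7 CPM with ethanol and at 5.58, 7.59 and 6.65 CPM in controls, with no overlap. The change was 7.92-fold (log2 2.99, SE 0.25, 95% interval 2.40 to 3.57, adjusted p = 0.000243 by edgeR), and it was 2.33 on the log2 scale with library size alone. Klf9, a Krüppel-like factor also known as a target of thyroid hormone, was at 210.4, 192 and 188 CPM against 59.5, 64.5 and 65.2 CPM. The 3 ethanol mice lay close together, and Klf9 had the smallest standard error of the 10 genes (log2 fold change 1.64, SE 0.10, adjusted p = 9.9e-05). With library size alone the log2 fold change of Klf9 was 0.97 (adjusted p = 0.000394), just under the fold threshold. Klf15, which drives amino acid catabolism and glucose production in fasting liver, was at 159, 160.1 and 130.5 CPM against 162, 156 and 155 CPM. The groups overlapped, and the log2 fold change was -0.07, with a 95% interval of -0.34 to 0.19 (adjusted p = 0.622). On the FPKM scale, which divides by length and by total fragments, Klf15 was at 39.8 ± 5.75 with ethanol and 66.6 ± 1.78 in controls without overlap, and with library size alone its log2 fold change was -0.74 (adjusted p = 0.00289).

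Tsc22d3 was the one gene of the 10 called lower. It encodes GILZ, a leucine zipper protein that carries part of the anti-inflammatory action of glucocorticoids. It was at 68.6, 81.5 and 37.8 CPM with ethanol and at 143, 123 and 127 CPM in controls, and the groups did not overlap. The fold was 2.09 lower (log2 -1.06, SE 0.26, 95% interval -1.68 to -0.45, adjusted p = 0.0156 by edgeR). The call sits at the fold threshold: without ethanol replicate 3 the log2 fold change was -0.79 (adjusted p = 0.00063), without control replicate 1 it was -1.001 (adjusted p = 0.0582), and with the length trend removed it was -0.89 (adjusted p = 0.0367). With library size alone it was -1.72. Lymphocytes also express Tsc22d3, and the lymphocyte marker sums given above were lower with ethanol; their part in this value was not tested.

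In kinase signalling, Errfi1 was called higher and Sgk1 stayed under the fold threshold. Sgk1, the serum and glucocorticoid regulated kinase, was at 58.4, 62.7 and 43.8 CPM with ethanol and at 29.5, 34.0 and 28.3 CPM in controls. Every ethanol mouse lay above every control, with a log2 fold change of 0.84 (SE 0.16, 95% interval 0.47 to 1.22, adjusted p = 0.00527 by edgeR). It passed the threshold with the length trend removed (1.03, adjusted p = 0.00321), and with library size alone it was 0.18 (adjusted p = 0.407). Errfi1, which encodes MIG6, an inhibitor of the EGF receptor, had the highest FPKM of the 10 in both groups. It was at 2938, 3139 and 2103 CPM against 945, 961 and 889 CPM, again without overlap. The change was 2.93-fold (log2 1.55, SE 0.17, 95% interval 1.15 to 1.95, adjusted p = 0.000676), and with library size alone the log2 fold change was 0.89 (adjusted p = 0.00559).

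Lpin1 was strongly upregulated. It encodes lipin 1, a phosphatidate phosphatase of triglyceride synthesis that also acts in the nucleus as a coactivator of fatty acid oxidation genes. The ethanol livers were at 1339, 908 and 606 CPM and the control livers at 54.7, 39.7 and 39.7 CPM. The 3 ethanol mice spanned a wide range but all lay far above the controls, with means of 951 ± 368 and 44.7 ± 8.65 CPM. The change was 21.3-fold (log2 4.41, SE 0.33, 95% interval 3.64 to 5.18, adjusted p = 0.000187 by edgeR), ranked 304 of all genes tested, and it was 3.74 on the log2 scale with library size alone. The intervals of Lpin1 and Fkbp5 overlapped, and without ethanol replicate 1 Fkbp5 (4.16) was above Lpin1 (4.09).

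To show the regulatory DNA of these genes, promoters were read from RefSeq (GRCm38.p6), each as the 250 bases before and 50 bases after an annotated start. The table held 16 promoters for 8 of the 10 genes; Nr3c1 and Zbtb16 had no entry. Both strands were searched for 3 strings of letters: the palindrome of the receptor's response element, its half-site AGAACA, which reads TGTTCT on the opposite strand, and CACGTG, the E-box bound by clock and MYC family factors. The palindrome is the half-site followed, after any 3 bases, by its reverse complement, and so contains 2 half-sites. It occurred in 3 of 32851 promoters of this length (0.00913%), the half-site in 19% and the E-box in 7.15%. The 250 bases before the start are shown for called genes with a large change (Lpin1, Fkbp5, Klf9) and for Tsc22d3, the gene that fell. They are also shown for the Sgk1 promoter that held the palindrome, which was chosen after the match was seen. Tsc22d3 promoter 2, shown here, held a half-site, whereas its promoters 1 and 3 held none of the 3 strings. Capitals mark the matches, and positions are counted from the start of transcription. In order, they are Lpin1 (chr12:16610967-16611216, minus strand), Fkbp5 (chr17:28486150-28486399, minus), Klf9 (chr19:23140976-23141225, plus), Tsc22d3 promoter 2 (chrX:140600523-140600772, minus) and Sgk1 promoter 5 (chr10:21993640-21993889, plus). The gene positions given earlier are as deposited, on a build that could not be established, and cannot be compared with these promoter positions.
Lpin1: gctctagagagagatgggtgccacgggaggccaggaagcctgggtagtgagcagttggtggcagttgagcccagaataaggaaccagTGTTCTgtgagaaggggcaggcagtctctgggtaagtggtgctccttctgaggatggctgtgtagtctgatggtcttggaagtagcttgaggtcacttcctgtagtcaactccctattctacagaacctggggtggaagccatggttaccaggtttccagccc
Fkbp5: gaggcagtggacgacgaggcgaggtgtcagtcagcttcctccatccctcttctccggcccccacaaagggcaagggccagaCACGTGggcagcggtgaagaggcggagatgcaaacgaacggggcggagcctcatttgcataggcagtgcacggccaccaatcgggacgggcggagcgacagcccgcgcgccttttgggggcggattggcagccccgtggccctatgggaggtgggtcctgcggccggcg
Klf9: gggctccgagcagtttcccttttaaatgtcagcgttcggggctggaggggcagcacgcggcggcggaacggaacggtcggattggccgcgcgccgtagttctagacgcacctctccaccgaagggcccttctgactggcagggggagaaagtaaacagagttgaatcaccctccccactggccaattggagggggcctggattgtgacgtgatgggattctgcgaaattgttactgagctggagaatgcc
Tsc22d3: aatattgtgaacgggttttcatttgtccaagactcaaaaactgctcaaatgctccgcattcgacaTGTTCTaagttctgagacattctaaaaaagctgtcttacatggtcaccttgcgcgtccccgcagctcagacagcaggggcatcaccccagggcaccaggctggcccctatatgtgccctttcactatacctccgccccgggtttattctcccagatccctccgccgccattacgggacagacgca
Sgk1: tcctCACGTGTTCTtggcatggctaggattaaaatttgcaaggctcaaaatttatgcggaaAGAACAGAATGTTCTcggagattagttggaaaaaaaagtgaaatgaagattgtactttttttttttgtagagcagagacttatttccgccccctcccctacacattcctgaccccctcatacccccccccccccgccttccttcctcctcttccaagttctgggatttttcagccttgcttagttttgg

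The palindrome was found in 1 of the 16 promoters, in Sgk1, at -189 (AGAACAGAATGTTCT). Half-sites lay in 5 of the 16 promoters, from 3 genes, Lpin1 at -163, Tsc22d3 at -185 and Sgk1 in 3 of its promoters, and E-boxes in 3 of the 16, in Fkbp5 at -169, Klf15 and Sgk1. Among the called genes, the promoter of Klf9 and promoters 1 and 2 of Errfi1 held none of the 3 strings in this window. The promoter of Hsd11b1, which was not called, held none either. GC content of the 16 promoters ran from 42% (Errfi1 promoter 1) to 73.3% (Klf15), with a median of 52.7% over all promoters in the table. Of the promoters printed, Sgk1 promoter 5 was at 46.3%, Tsc22d3 promoter 2 at 54.3%, Lpin1 at 55.3%, Klf9 at 63.3% and Fkbp5 at 70.7%. A match is a description of the sequence and not a measured binding site.

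The ethanol mice differed among themselves more than the control mice did. The coefficient of variation was larger in the ethanol group in 9 of the 10 genes, as it was in 74.4% of all genes tested, whose median was 23.7% with ethanol and 11.6% in controls. Within the ethanol group the highest value was 1.11 times the lowest for Hsd11b1 and 2.43 times for Fkbp5. Ethanol replicate 3 was the lowest ethanol library in 9 of the 10 genes, against 39.1% of all genes, and the highest in 1, Fkbp5, against 40.5%. Without this library the same 5 genes were called higher and the call of Tsc22d3 was lost.

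**Figure D3:**
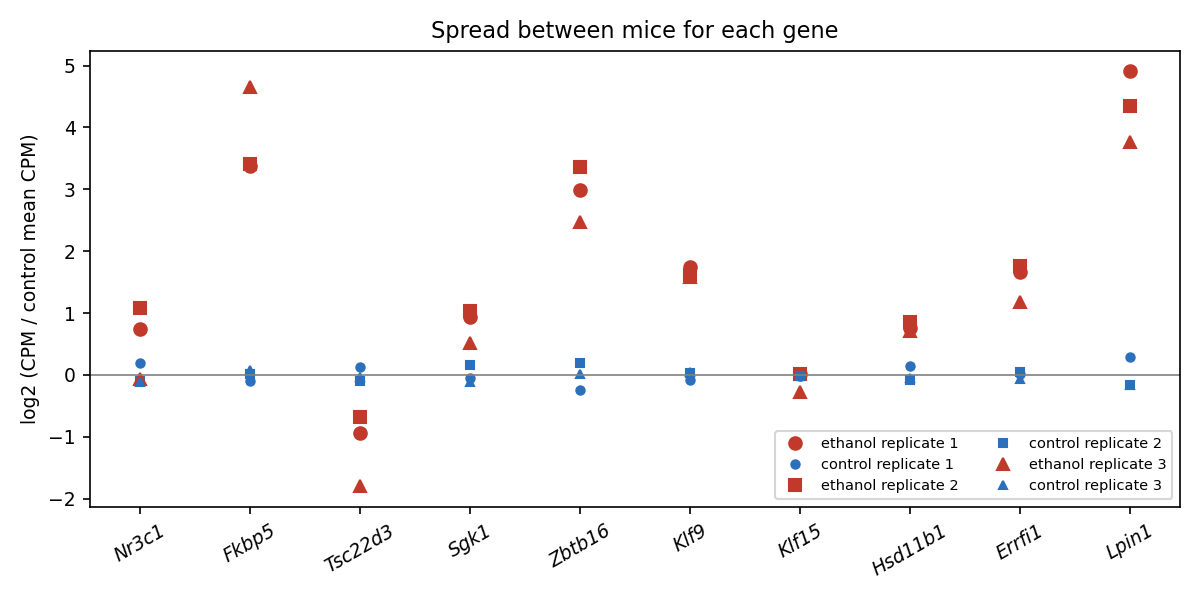
Level of each of the 10 genes in each ethanol-exposed mouse, as the log2 difference from the control mean, with control mice shown as their own points. Replicate 3 is the lowest of the ethanol points in 9 of the 10 genes and the highest for Fkbp5.

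Because FPKM divides by transcript length, it allows levels to be compared between genes. In control livers the order of mean FPKM was Errfi1 (307), Hsd11b1 (118), Klf15 (66.6), Tsc22d3 (35.6), Klf9 (15.4), Sgk1 (7.35), Nr3c1 (6.74), Lpin1 (5.31), Zbtb16 (1.47) and Fkbp5 (1.21). The ranges over mice overlapped between Sgk1 and Nr3c1, Nr3c1 and Lpin1, and Zbtb16 and Fkbp5, and not between the other neighbours. With ethanol, Errfi1 (566) and Hsd11b1 (127) stayed at the top, Lpin1 (70.9) came next beside Klf15 (39.8), and Klf9 (30.3) followed. Fkbp5 (11.7), Tsc22d3 (10.8), Sgk1 (8.33), Zbtb16 (7.39) and Nr3c1 (6.74) then formed a run whose neighbours overlapped.

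Other genes known to be induced by glucocorticoids were mostly higher as well. Of 43 tested, 29 were called higher and 2 lower, where 10.4% and 13.8% of all genes were, and the median log2 fold change was 1.75. With library size alone 24 were higher and 3 lower, against 5.06% and 32.2% of all genes. With limma on log2(FPKM + 1) the counts were 19 and 3, against 408 and 1713 of the 16007 genes tested there. Many genes of this list also respond to fasting, glucagon or stress kinases, and Cps1 is also among the hepatocyte markers. Like the other lists, this list was chosen with earlier results of these data known, so its counts are not an independent test. By smallest adjusted p the leading genes were Mt1, a zinc-binding metallothionein (log2 fold change 10.76, adjusted p = 1.62e-05), Por, the electron donor of cytochrome P450 enzymes (3.64, SE 0.15), Cdkn1a, the p21 cell cycle inhibitor (4.32, SE 0.20), and Sds, a serine dehydratase of gluconeogenesis (3.69, SE 0.17). Mt1 stood at 2948, 2384 and 3536 CPM against 1.37, 2.18 and 1.58 CPM. Por rose from 86.0 ± 9.56 to 1076 ± 120 CPM and Sds from 105 ± 15.6 to 1355 ± 171 CPM.

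Tat, Per1, Tdo2 and Pck1 were named after their values were seen. Tat, tyrosine aminotransferase, was at 12083, 12356 and 9148 CPM against 2528, 2705 and 2425 CPM (log2 fold change 2.13, SE 0.16, adjusted p = 0.000173 by edgeR). Per1, a period gene of the circadian clock, had a log2 fold change of 3.85 (edgeR adjusted p = 0.000243), and Tdo2, tryptophan dioxygenase, of 1.61 (0.94 with library size alone, under the threshold). Of the genes of glucose output, G6pc1, glucose-6-phosphatase, fell from 879 ± 96.6 to 119 ± 68.7 CPM (log2 fold change -2.89, SE 0.50, adjusted p = 0.00374), and its lowest value, 39.7 CPM, was in ethanol replicate 3. Pck1, PEP carboxykinase, had a log2 fold change of 1.03 (edgeR adjusted p = 0.0213), and its call was lost in 12 of 16 alternatives, among them library size alone (0.37, adjusted p = 0.315) and the omission of any library other than ethanol replicate 3 (0.80 to 1.07). Bcl6, a zinc finger repressor, had a log2 fold change of -1.06 (edgeR adjusted p = 0.00920), which was -0.90 without ethanol replicate 3 and -0.81 without control replicate 1.

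**Figure D4:**
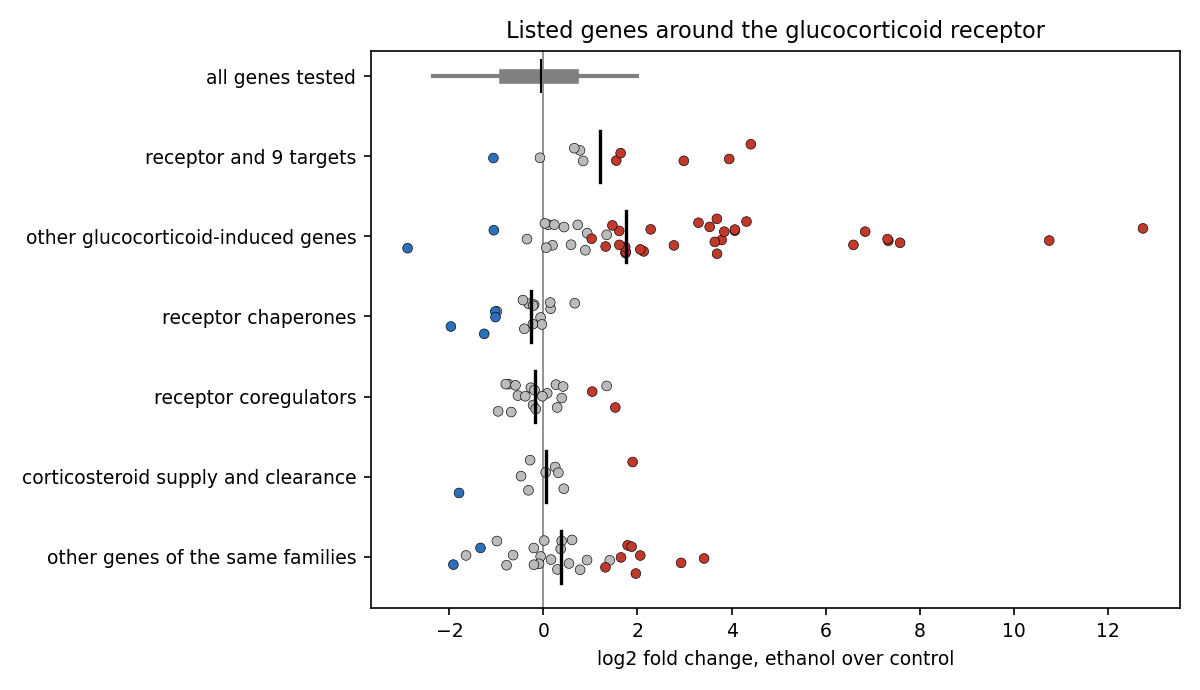
Log2 fold changes of the receptor and 9 targets and of the other listed genes, a point for each gene tested and a bar at each list's median; called genes are red (higher) or blue (lower), and the grey bars give the middle 50% and 90% of all genes tested. The other glucocorticoid-induced genes lie mostly above 0, with a median of 1.75, whereas chaperones and coregulators centre near 0 (-0.27 and -0.18).

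Among coregulators of the receptor, Crtc2 and Nrip1 were the called genes. Of 20 tested, 2 were called higher and 0 lower by edgeR. By adjusted p alone 3 were higher and 6 lower, at an unadjusted p under 0.05 the counts were 4 and 6, and DESeq2 called 3 higher and 0 lower; with library size alone 0 were called higher and 7 lower. The shares of all genes called were 10.4% higher and 13.8% lower, and 5.06% and 32.2% with library size alone. By adjusted p alone the shares were 21.5% in each direction, and at an unadjusted p under 0.05 they were 25.6% and 26.7%. With DESeq2 they were 7.23% and 10.4%. Crtc2, a CREB coactivator, had a log2 fold change of 1.04 (edgeR adjusted p = 0.00157), which was 0.92 without ethanol replicate 3, 0.96 without control replicate 3 and 0.36 with library size alone. Nrip1, a corepressor of nuclear receptors, had a log2 fold change of 1.53 (edgeR adjusted p = 0.0138), and the adjusted p was 0.0594 without control replicate 2 and 0.0614 without control replicate 3. Its log2 fold change was 0.87 (adjusted p = 0.0845) with library size alone.

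To set the 10 genes against their own families, 28 other members of these families were tested, of which 8 were called higher and 2 lower; with library size alone 6 were higher and 6 lower, against the shares of all genes given above. Among the Krüppel-like factors, 6 of 12 were called higher and 1 lower. Klf6 rose to 53.6, 62.4 and 31.7 CPM from 4.07, 4.86 and 4.91 CPM (log2 fold change 3.42, SE 0.26, adjusted p = 0.000202), and Klf13, the closest relative of Klf9, had a log2 fold change of 1.96 (SE 0.14, adjusted p = 0.000150). Klf10, first known as a TGF-beta inducible factor, was at 17.5, 21.7 and 23.5 CPM against 5.50, 5.80 and 6.82 CPM (log2 fold change 1.79, SE 0.16, adjusted p = 0.000334). Klf16 had a log2 fold change of -1.34 (edgeR adjusted p = 0.0136), with adjusted p = 0.0582 without control replicate 2. In the TSC22 family, Tsc22d1 was lower beside Tsc22d3 (log2 fold change -1.92, adjusted p = 0.000253), Tsc22d2 was higher (1.65, adjusted p = 0.000711; 0.99 with library size alone), and Tsc22d4 did not pass the fold threshold (0.61; -0.064 with library size alone).

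Of the other lipins and SGK kinases, Lpin3 was called higher. Lpin2, expressed strongly in liver, was at 640 and 798 CPM in ethanol replicates 1 and 2 but at 77.5 CPM in replicate 3, and at 205, 179 and 187 CPM in controls. The groups overlapped, and the log2 fold change of 1.41 did not pass (SE 0.69, adjusted p = 0.140 by edgeR); without ethanol replicate 3 it was called higher (1.93, adjusted p = 1.5e-05). Lpin3 had a log2 fold change of 1.32 (edgeR adjusted p = 0.00351), and 0.65 with library size alone. Sgk2 and Sgk3 had log2 fold changes of -0.78 (adjusted p = 0.0577) and -0.21, and with library size alone they were -1.44, where Sgk2 was called lower, and -0.87. The difference between these paralogs and Sgk1 was not tested. Of the 5 other FKBP genes and 4 other ZBTB genes, 0 were called by edgeR with TMM. At an unadjusted p under 0.05, 3 FKBP genes were higher and 1 lower, and 1 ZBTB gene was lower (25.6% and 26.7% of all genes). Zbtb32 had a log2 fold change of -1.65 (edgeR adjusted p = 0.0584) at under 1 CPM in every library, and it was called lower in 5 of 16 alternatives, among them library size alone (-2.29), DESeq2 and the omission of ethanol replicate 2 (-2.31).

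**Figure D5:**
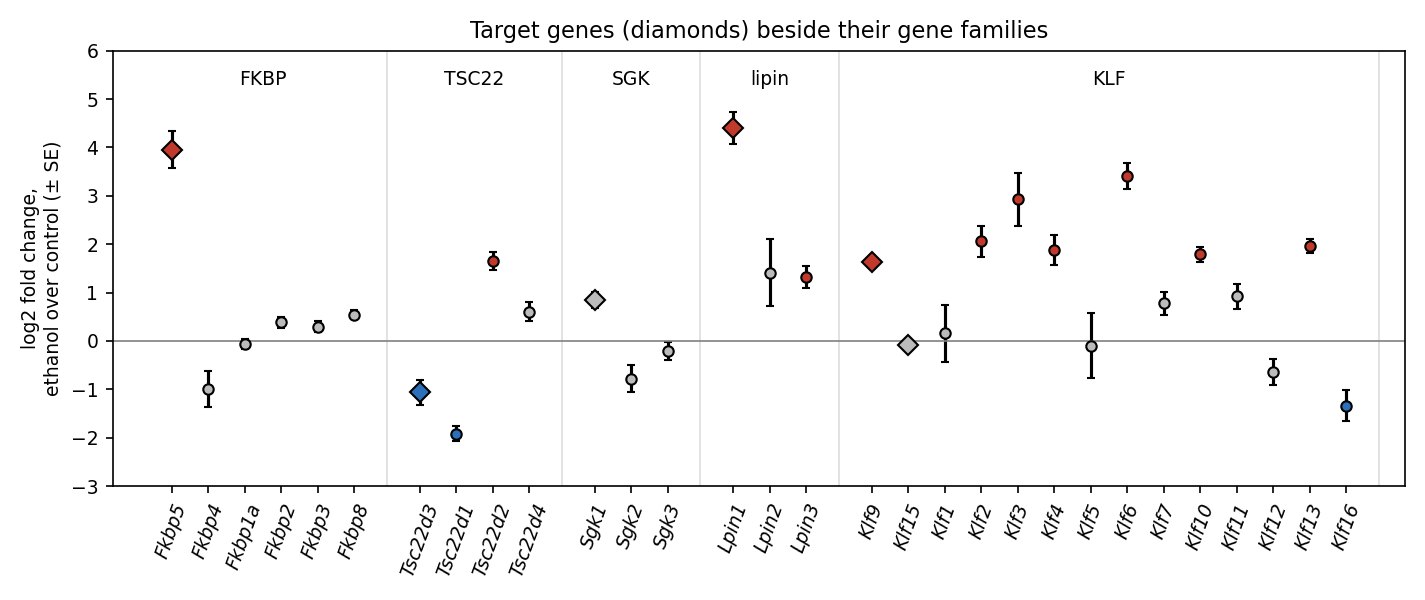
Log2 fold changes of the target genes beside other genes of their families, ethanol over control; diamonds are target genes, circles their relatives, bars standard errors, and called genes are red (higher) or blue (lower). Lpin1 and Fkbp5 lie above the tested relatives of their families, while Klf6 exceeds Klf9 and Tsc22d1 lies below Tsc22d3.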

How the data were processed

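Total RNA from whole liver was extracted with TRIzol and sequenced as paired-end reads on an Illumina NovaSeq. The authors deposited one table with raw counts per gene and FPKM, fragment counts scaled by transcript length and by total fragments; the aligner, counter and strand setting are not given in the sources used here. Strand being unknown, reads of overlapping genes may be shared. The submitters' processing notes name GRCm38 and mm10, but of 28880 genes, 27049 were found in GENCODE M21 and 502 had the same coordinates, so positions are quoted only as deposited. Promoters came from RefSeq, GRCm38.p6. One column of counts that matches no sample (1 in all) was left out.

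Counts were fitted in edgeR 4.0.16 (R 4.3.3; TMM, filterByExpr, quasi-likelihood test) over 6 libraries, with Benjamini-Hochberg adjustment over all genes tested. CPM are TMM-scaled. Alternatives were median-ratio, upper quartile and library-size scaling, removal of each library's length trend, no filter, DESeq2 1.42.0, limma 3.58.1 on log2(FPKM + 1) and log2(FPKM + 0.1), a replicate block, and each library left out. Scripts were tested on simulated data. On the log2(FPKM + pseudocount) scale the changes of low genes are understated. No replicates were duplicates: in each of the pairs within a group the counts differed by more than sampling noise. Each library is one mouse, and p-values measure the spread between these mice.

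The genes and lists were chosen with earlier results of these data known. All 10 genes are described; from each list the called genes with the smallest adjusted p (up to 4 in each direction) and relatives or partners of the 10 genes are named, and genes outside this rule are said to be so.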

Additional observations from a re-analysis of the deposited data

How the results depend on the processing

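Of 160 comparisons of the 10 genes with their values under 16 alternatives, 143 kept direction and call. Genes called in neither fit count as kept even where the size of the change moved. With library size alone this holds for Hsd11b1 (0.11), Sgk1 (0.18) and Klf15 (-0.74). With library size alone, 3 of the 10 genes were called higher, the median log2 fold change was 0.54, and 846 genes of the whole table were called higher and 5385 lower. With limma on log2(FPKM + 1), log2(FPKM + 0.1) and log2(FPKM + 1) without the filter, 3 of the 10 were called higher each time, the medians were 0.50, 0.51 and 0.50, 408, 752 and 379 genes were called higher, and 4965 were called lower with the pseudocount of 0.1. Klf9 and Errfi1 lost their calls in all 4 of these. With the length trend removed, 0 of the 10 were called lower. The share of called genes that were lower was 57.0%, and 86.4% with library size alone, 50.2% with the length trend removed and 80.8% with limma on log2(FPKM + 1). The cause of these shifts was not tested. Nr3c1 turned negative with limma, at -0.061, -0.081 and -0.061, and Klf15 turned positive with the length trend removed (0.021) and without ethanol replicate 3 (0.027; -0.13 to 0.027 over the libraries left out). Leaving out each library in turn gave 5 to 5 of the 10 called higher, 0 to 1 lower, 1490 to 1920 genes higher and 1713 to 2902 lower, 44 to 55 listed genes called (52 with all libraries) and medians of 1.09 to 1.34. Same-numbered libraries did not deviate together over all genes tested (correlations -0.035, -0.021 and -0.017). No source used here says whether the mice were paired, and this check could miss a pairing that touched few genes. With the replicate block, 5 of the 10 genes were called higher and 1 lower, the median was 1.18, and 1518 genes were called higher and 2000 lower. With 3 mice in each group, the spread among the ethanol mice limits precision.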

Other observations

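Inflammatory genes that glucocorticoids are known to repress showed no common direction. Of 8 tested, 2 were called higher and 1 lower, where 10.4% and 13.8% of all genes were, and the median log2 fold change was 0.40. With limma on log2(FPKM + 1), 1 was called higher and 0 lower. Il6, Tnf, Nos2, Ptgs2, Ccl3 and Ccl4 were below the filter on low counts. Cxcl1, a neutrophil chemokine, was at 80.0, 63.0 and 290.2 CPM with ethanol and at 2.50, 3.32 and 3.30 CPM in controls (log2 fold change 5.57, SE 0.66, adjusted p = 0.000947 by edgeR), and its log2 fold change was 4.57 without ethanol replicate 3. Vcam1, an adhesion molecule of endothelium, was at 17.3, 16.2 and 13.1 CPM against 3.31, 3.15 and 3.84 CPM (log2 fold change 2.18, adjusted p = 0.000203). Ccl2, a monocyte chemokine, had 0, 0 and 4 counts against 44, 12 and 32 counts; its adjusted p was 0.0399 and was above 0.05 without any single library other than ethanol replicate 3. Of 5 neutrophil markers tested 4 were called higher, though S100a8, Cxcr2 and Retnlg passed the low-count filter through the ethanol libraries alone. Of 10 endothelial markers 2 were called higher, Lyve1 (log2 fold change 3.59) and Cdh5 (1.19), and 3 lower, Kdr (-1.57), Oit3 (-1.30) and Tek (-1.19). The part of both cell types in these values was not tested.

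The mineralocorticoid receptor Nr3c2, which also binds corticosterone, had a log2 fold change of -0.50 (edgeR adjusted p = 0.0349), short of the fold threshold; with library size alone it was -1.17 and the gene was called lower.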
